A study of Mus musculus with 2 samples.

Results

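Granzymes, the pore-forming protein perforin, the granule proteins stored with them and 2 serpins that inhibit granzymes inside the cell were described in activated regulatory T cells of the mouse. The 9 genes, chosen by symbol from 55536 annotated genes, were Gzma, Gzmb, Gzmk, Gzmm, Prf1, Srgn, Ctsw, Serpinb9 and Serpinb6b. All 9 had reads in both libraries. RNA with poly(A) tails was sequenced in 2 libraries, technical replicates 1 and 2 of biological replicate 1, so there was 1 group and no second condition. The strain, Foxp3CreERT2 x Rosa26YFP, carries a Cre that tamoxifen activates, expressed under control of Foxp3, together with a reporter of yellow fluorescence at Rosa26. The donor was a male aged 4 months, and the cells were labelled as originating from a bone marrow haematopoietic cell. The tissue of isolation, the sort, the means of activation and any tamoxifen treatment are named in none of the sources used here. The data address which of these genes such cells transcribed and at what level. An SD below covers only the spread between both technical libraries (n = 2), and no p-value refers to animals.

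Cytotoxic lymphocytes kill by releasing granules in which granzymes, a family of serine proteases, are held on the proteoglycan serglycin. Perforin opens the target's membrane so that the granzymes enter and cleave proteins there. Serpins of clade B in the cytosol trap granzymes that leak from the granules and so spare the cell that makes them. Granzyme B and perforin have been studied in regulatory T cells as one of several means by which these cells restrain other lymphocytes.

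The granzymes are related enough that the separation of their reads matters for every level below. The 30 coding bases around the codon of the active-site serine show this for the 4 granzymes described, each from the transcript of GENCODE release M21 with the serine codon in capitals.
Gzmb: tttcggggggatTCTggaggcccgcttgtg
Gzma: tgcaatggggatTCTggcagccctctgcta
Gzmk: tgcaagggtgacTCTggtggccctttgatc
Gzmm: tgcaagggtgacTCTggagggcccctggtg
In all 4 the serine codon is TCT. Against Gzmb the stretch differed at 11 of 30 bases in Gzma, 12 in Gzmk and 9 in Gzmm. Over the whole coding sequence Gzmb matched Gzma at 59.6% of aligned bases, Gzmk at 60.3%, Gzmm at 59.1% and Gzmc, its closest relative among the granzymes compared, at 76.7%. The reads were 50 bases long, as length minus effective length in the deposited tables shows. No sequence of 50 bases in the transcripts of Gzma, Gzmb, Gzmk, Gzmm, Prf1, Srgn or Ctsw occurred on the same strand in a transcript of another gene.

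The serpins shared short stretches with relatives. Of 3442 different 50-base sequences in Serpinb9 transcripts, 13 (0.378%) also lay in Serpinb9b, and of 2298 in Serpinb6b, 67 (2.92%) lay in Serpinb6a, Serpinb6c or Gm8436. A read that lies inside a shared stretch could not be told apart, and the longest one is shown for Serpinb9b, Serpinb6c and Serpinb6a. The one of Serpinb9 covers 62 bases, coding positions 261 to 322 of Serpinb9-201, and that of Serpinb6b with Serpinb6c covers 73 bases, coding positions 339 to 411 of Serpinb6b-202. With Serpinb6a, a relative that was expressed, Serpinb6b shares 57 bases, coding positions 490 to 546 of the same transcript. The longest stretch shared with Gm8436, not shown, covers 64 bases, coding positions 319 to 382 of that transcript. Gm8436 was not among the listed genes, so its level was not examined.
Serpinb9 with Serpinb9b: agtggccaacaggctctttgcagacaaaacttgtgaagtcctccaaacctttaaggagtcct
Serpinb6b with Serpinb6c: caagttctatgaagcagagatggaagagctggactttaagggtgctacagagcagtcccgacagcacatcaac
Serpinb6b with Serpinb6a: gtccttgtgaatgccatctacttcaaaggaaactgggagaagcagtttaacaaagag
Serpinb6c had no reads in either library, Serpinb9b had 5 and 11, and Serpinb6a had 543 and 490. The deposited SD of the estimated reads was at most 1.32 reads for Serpinb6b and 0.61 for Serpinb9, against more than 500 reads for each gene in each library.

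Srgn, which encodes serglycin, was by far the most abundant of the 9 genes. In library 1 it reached 1505 TPM (transcript abundance scaled by transcript length to a fixed total) and in library 2 1488 TPM, which gives a mean of 1497 ± 11.9 (SD, n = 2), from 15764 and 14796 estimated reads. Both libraries were thus close, and library 1 was slightly the higher. The exact 95% Poisson interval, which covers counting error only, ran from 1482 to 1529 TPM in library 1 and from 1464 to 1513 in library 2. Srgn lay above 99.6% of 22028 protein-coding genes and made up 84.0% and 83.6% of the summed TPM of the 9 genes. On mm10 it lies on chromosome 10 from 62493833 to 62527451, minus strand.

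Ctsw encodes cathepsin W, a cysteine protease of the papain family known from natural killer cells and CD8 T cells, and was the next in level. It stood at 132.0 and 138.2 TPM, a mean of 135 ± 4.39, from 1880 and 1920 reads. Srgn was 11.4 times Ctsw in library 1 and 10.8 times in library 2 by TPM. The gene (chromosome 19, 5465043 to 5468507, minus strand) ends against Fibp, which runs on the opposite strand at 49.2 and 62.5 TPM. Only 9 of 1887 exonic bases of Ctsw are shared with Fibp exons. Whether the counting used strand is stated in none of the sources used here, so reads over those bases are uncertain.

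Gzmb encodes granzyme B, which cleaves proteins after aspartate. It was the highest granzyme, with 107.2 TPM in library 1 and 98.7 in library 2, and averaged 103 ± 6.02, from 1844 and 1602 reads. The counting intervals, 102 to 112 and 93.9 to 104 TPM, overlapped at their edges. Gzmb lay above 94.6% of protein-coding genes and below Ctsw, which was 1.23 and 1.40 times as high in the 2 libraries. The gene lies on chromosome 14 from 56258838 to 56262260, minus strand.

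The other 3 granzymes were far lower. Gzma, a tryptase that cleaves after basic residues (chromosome 13, 113093825 to 113100981, minus strand), stood at 2.53 and 2.78 TPM, a mean of 2.66 ± 0.18, from 26 and 27 reads. Gzmb was 42.4 and 35.5 times as high as Gzma. Gzmk, a second tryptase 70.6 kb away on the same strand, stood at 0.87 and 0.10 TPM, from 10 reads and 1 read. Gzmm, which cleaves after methionine and leucine (chromosome 10, 79689020 to 79695261, plus strand), stood at 0.39 and 0.35 TPM, from 6 and 5 reads. Neither Gzmk nor Gzmm reached 1 TPM in a library, and at this depth their order could not be told: Gzmk was above Gzmm in library 1 and below it in library 2.

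Prf1, the gene of perforin (chromosome 10, 61297833 to 61304680, plus strand), stood at 3.88 TPM in library 1 and 7.56 in library 2 and averaged 5.72 ± 2.60, from 105 and 198 reads. The libraries did not overlap within counting error, with intervals of 3.18 to 4.70 and 6.54 to 8.68 TPM. By TPM, Gzmb therefore exceeded Prf1 27.6 times in library 1 and 13.1 times in library 2. In library 1 the counting interval of Prf1 overlapped that of Gzma, 1.65 to 3.71 TPM, and in library 2 it did not (1.83 to 4.05).

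Both serpins lay between Gzmb and Prf1. Serpinb6b, which inhibits mouse granzyme A, stood at 26.9 and 30.0 TPM, a mean of 28.4 ± 2.18, from 598 and 638 reads. Serpinb9, the inhibitor of granzyme B, stood at 12.9 and 14.5 TPM, a mean of 13.7 ± 1.14, from 544 and 576 reads. The 2 genes lie 24.2 kb apart on the plus strand of chromosome 13, Serpinb6b from 32965209 to 32979067 and Serpinb9 from 33003250 to 33017957. Their ratio was nearly the same in both libraries, with Serpinb6b 2.09 and 2.07 times as high as Serpinb9. Gzmb was 8.34 and 6.82 times as high as Serpinb9, whereas Gzma was below Serpinb6b in each library.

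**Figure D1:**
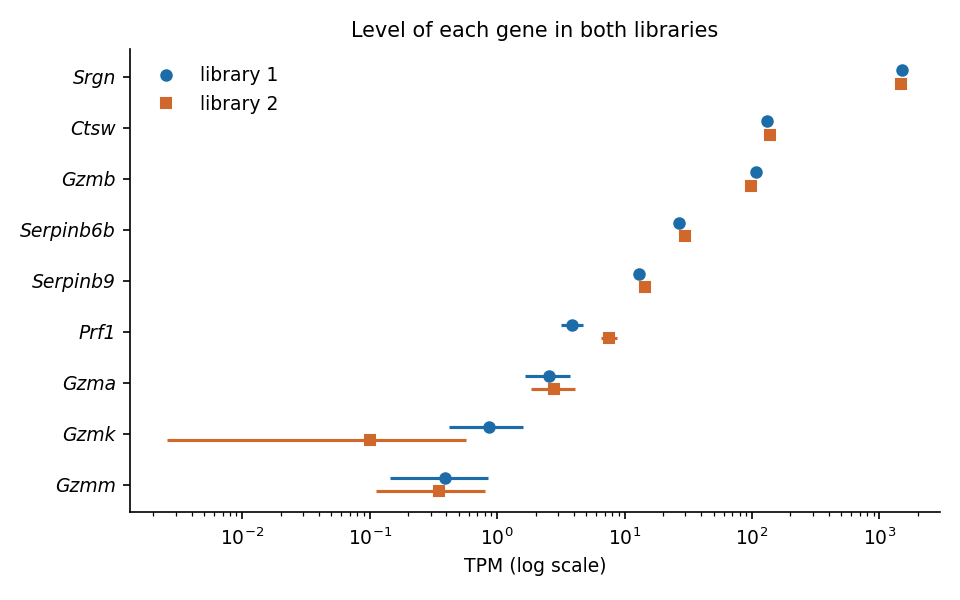
Level of each of the 9 genes in TPM on a log axis, library 1 as circles and library 2 as squares, with exact 95% Poisson intervals of the estimated reads as lines. The genes run from Srgn near 1500 TPM to Gzmm near 0.37 TPM, and Prf1 is the gene whose 2 intervals lie apart.

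By mean TPM the order was Srgn, Ctsw, Gzmb, Serpinb6b, Serpinb9, Prf1, Gzma, Gzmk and Gzmm. The ranges of neighbours over both libraries overlapped only for Gzmk and Gzmm. Of the 9 genes, 7 reached a mean of 1 TPM, 5 reached 10 TPM and 3 reached 100 TPM. Of 22028 protein-coding genes, 47.3%, 30.5% and 5.51% did so. Gzmb passed 100 TPM in library 1 only. The median over protein-coding genes was 0.59 TPM, above the mean of Gzmk (0.485) and of Gzmm (0.37), although Gzmk was above it in library 1.

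**Figure D2:**
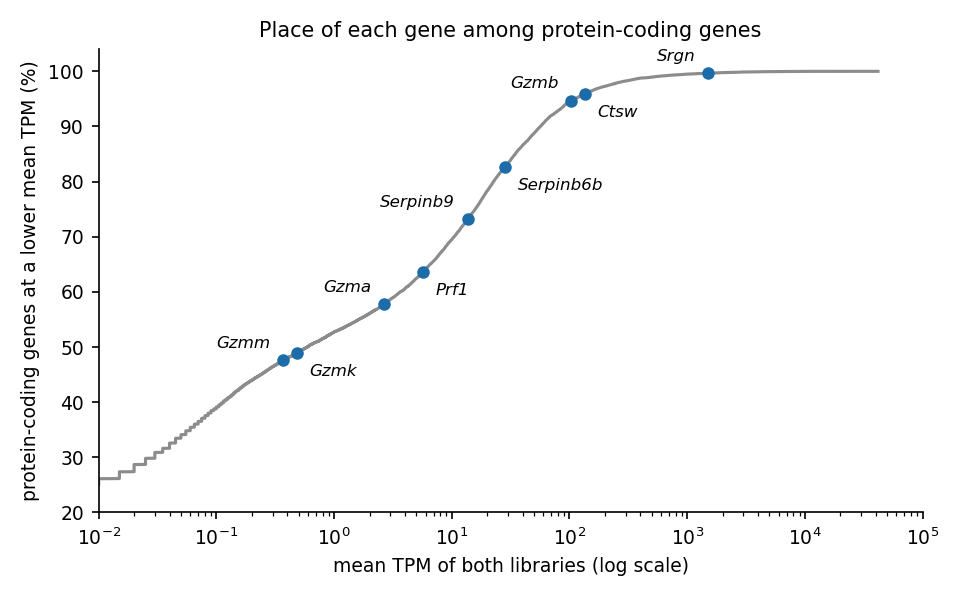
Percentage of 22028 protein-coding genes at a lower mean TPM against mean TPM on a log axis, with the grey curve for all protein-coding genes and points for the 9 genes. Srgn, Ctsw and Gzmb sit above 94% of the genes, and Gzmk and Gzmm lie just under the middle.

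The estimated gene reads summed to 15076144 in library 1 and 14635859 in library 2. The 6 regulatory T cell markers and the 6 T cell markers examined were all above 10 TPM, with Foxp3 at 23.8 and 20.9 TPM. Genes listed as markers of other cells ranged from no reads to levels near that of Foxp3. Of 6 natural killer cell markers, 1 reached 1 TPM (Klrb1c at 1.10 and 1.99), their sum was 1.94 and 2.18 TPM, and Ncr1, Klra8 and Klre1 had no reads. Cd8a was at 1.43 and 0.79 TPM and Cd8b1 at 9.94 and 14.8. The 4 gamma delta T cell constant genes summed to 23.0 and 26.4 TPM, most of it Tcrg-C1 (16.8 and 17.2), and their median was 2.335 and 3.845 TPM. Of 4 plasmacytoid dendritic cell markers, 3 reached 1 TPM, with a sum of 28.8 and 31.1 TPM. These were Irf8 (13.5 and 12.1), Ccr9 (11.6 and 16.2) and Tcf4 (3.76 and 2.74), and Siglech had no reads. Cd8b1, Tcrg-C1, Irf8 and Ccr9 were thus above Prf1 and Gzma in both libraries, whereas Cd8a and Siglech were below both. At 1 TPM or more were 2 of 8 mast cell and basophil markers, 0 of 5 neutrophil markers, 2 of 6 monocyte and macrophage markers and 1 of 4 B cell markers, each under 3 TPM. In bulk RNA, fewer cells of a type and less RNA per cell cannot be told apart. Nor can reads from such cells be told from transcription of the same genes in the sampled T cells. The part of such cells in the granzyme levels was not tested.

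Library 2 was next set against library 1, a test of these libraries and of no condition. Each gene's rounded estimated reads were set against the share of all gene reads in library 2 (49.3%) by a two-sided exact binomial test, adjusted by the Benjamini-Hochberg method over 17272 genes with 10 or more reads in sum. At an adjusted p of 0.05, 3 of the 9 genes were called, where 24.3% of all tested genes were. Among genes with 100 reads or more in sum the share called was 30.7%, and all 3 calls were among the 6 members of that depth. Prf1 was the member called higher in library 2, at a log2 ratio of 0.95 (95% interval 0.61 to 1.31, adjusted p = 6.43e-07 by the exact binomial test). In that direction 12.7% of tested genes were called. Gzmb and Srgn were called higher in library 1, as were 11.6% of tested genes. Their log2 ratios of library 2 over library 1 were -0.16 (adjusted p = 0.00791) and -0.05 (adjusted p = 0.0176), both by the exact binomial test.

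Gzmk, with 10 reads and 1 read, missed the threshold at a log2 ratio of -2.76 (interval -8.72 to -0.47, adjusted p = 0.0536, exact binomial test). For Ctsw, Serpinb9 and Serpinb6b the intervals of the log2 ratio ran from -0.05 at the lowest to 0.30 at the highest. For Gzma and Gzmm, with few reads, they were wide, from -0.74 to 0.93 and from -2.27 to 1.76. With edgeR's exact test at a common dispersion estimated over the 2 libraries, which counts their difference as replicate spread, 0 of the 9 genes were called, and 1.77% of all tested genes were. Of the 9, Prf1 and Gzmk had an unadjusted p under 0.05 in edgeR's exact test, and the adjusted p of Prf1 was 0.0947. Some genes listed as markers of other cells were also called higher in library 2 by the exact binomial test, where 12.7% of tested genes were. These were 1 of 2 tested CD8 T cell, 1 of 4 gamma delta T cell, 2 of 4 macrophage and 2 of 3 plasmacytoid dendritic cell markers. Of the markers of the sampled cells, 3 of 6 T cell and 1 of 6 regulatory T cell markers were called higher in library 2. In each of these 2 lists 1 more was called higher in library 1. The log2 ratio was 0.53 for Cd8b1 (adjusted p = 0.00192) and 2.06 for the macrophage gene Lyz2 (adjusted p = 8.59e-05). It was 2.36 for Csf1r (adjusted p = 0.0465), 1.42 for Tcrg-C4 (adjusted p = 0.00273), 0.47 for Ccr9 (adjusted p = 7.89e-06) and 0.29 for Irf8 (adjusted p = 0.0483), all by the exact binomial test. Of the 6 natural killer cell markers only 1 had enough reads to be tested, and it was not called. The 6 monocyte and macrophage markers summed to 3.85 and 6.25 TPM, and Cd14 had no reads. Their part in the difference of Prf1 was not tested.

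**Figure D3:**
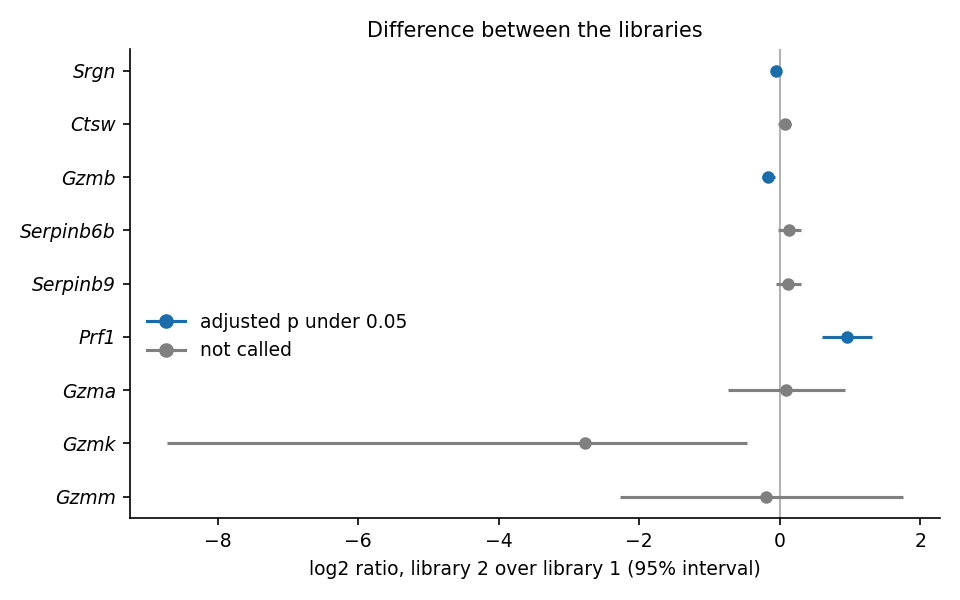
Log2 ratio of library 2 over library 1 for each of the 9 genes, with 95% intervals from the exact binomial test, blue where the adjusted p was under 0.05 and grey where not. Prf1 lies to the right at 0.95, Gzmb and Srgn lie slightly left of 0, and the intervals of Gzma, Gzmk and Gzmm are the widest.

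The transcript tables divide each gene's reads among its annotated transcripts. Gzmb has 1 annotated transcript, so its level does not rest on such a division. Gzma and Gzmm each had all their reads assigned to 1 coding transcript. The deposited SD was 5.88 and 3.94 reads for each transcript of Gzma, against 26 and 27 reads. It was 0.9 and 0.68 reads for each transcript of Gzmm, against 6 and 5. The same transcript led in both libraries for 7 of the 9 genes. For Srgn it was Srgn-201, at 75.7% and 76.5% of the gene's TPM, followed by the shorter Srgn-205 at 22.6% and 21.6%. For Prf1 it was the longer Prf1-202, at 51.5% and 63.2%. Prf1-202 had 60.2 and 136 estimated reads and Prf1-201 had 44.8 and 62.4. The deposited SD was 11.4 reads in library 1 and 14.25 in library 2 for each transcript. Both estimates were thus higher in library 2, but for Prf1-201 the SDs leave the direction uncertain.

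Serpinb9-202 held 83.0% and 69.4% of the TPM of Serpinb9, from 453 and 402 estimated reads with a deposited SD of 79.0 and 141. Serpinb9-201 had 90.7 and 173.5 reads with an SD of 79.0 and 141, so the split of Serpinb9 was uncertain. For Serpinb6b the leading transcript differed, with Serpinb6b-203 at 48.4% in library 1 and 11.0% in library 2 and Serpinb6b-202 at 38.4% and 57.7%. The deposited SD of its transcript reads was large, 43.4 and 34.0 reads for Serpinb6b-203 and 66.8 and 59.5 for Serpinb6b-202, whereas it was at most 1.32 reads for the gene. Of the reads of Ctsw, 34.5% and 30.4% were assigned to transcripts annotated as retaining an intron, and coding transcripts took 66.3% of its TPM on average. No other gene of the 9 had more than 1.71% of its reads on such transcripts.

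Gzmb has 4 protein-coding neighbours within 100 kb, all of them granzymes on the same strand, and 1 reached 1 TPM. Gzmc, 24.2 kb away, was at 7.92 and 8.70 TPM from 83 and 86 reads, above Gzma in both libraries and above Prf1 by the mean. Gzmf, Gzmg and Gzmn, the other 3, were at or under 0.20 TPM. Over 10 granzyme genes Gzmb took 90.0% and 89.0% of the summed TPM, Gzmc 6.65% and 7.84% and Gzma 2.12% and 2.51%. Of 6 granzymes beyond those described, Gzme, Gzmg and Gzmn were without reads, and 3 reads would have given them 0.279, 0.281 and 0.262 TPM in library 1. None of the 6 mast cell and neutrophil proteases examined from the same chromosomal cluster (Ctsg, Cma1, Mcpt1, Mcpt2, Mcpt4 and Mcpt8) had a read.

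Gzma and Gzmk each have 4 protein-coding neighbours within 100 kb. Among these, Gzma was the one that reached 1 TPM. Prf1 has 2 such neighbours, Adamts14 and Pald1, and both had no reads. Srgn and Ctsw lie among expressed genes, with 5 of 7 and 11 of 16 protein-coding neighbours at 1 TPM or more. Gzmm lies 0.622 kb from Cdc34 (20.8 and 21.6 TPM) and 9.23 kb from Bsg (101.8 and 105.6 TPM), both far above it. Serpinb9 and Serpinb6b were each the only protein-coding neighbour of the other to reach 1 TPM.

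The bases upstream of Gzmb and Prf1 are shown because these genes, the granzyme and the pore former that act together, stood far apart in level. The sequences are RefSeq's, on GRCm38.p6, and end just before the start annotated in RefSeq, or before the first GENCODE exon where that begins earlier. On the minus strand Gzmb starts at 56262260 in GENCODE, so its window, which ends at 56262335, stops short of that start. Capitals mark matches on either strand to TGTGGT (bound by RUNX factors) and TGANTCA (bound by AP-1 factors such as Batf with a Jun protein).
Gzmb, chr14:56262335-56262584, minus strand: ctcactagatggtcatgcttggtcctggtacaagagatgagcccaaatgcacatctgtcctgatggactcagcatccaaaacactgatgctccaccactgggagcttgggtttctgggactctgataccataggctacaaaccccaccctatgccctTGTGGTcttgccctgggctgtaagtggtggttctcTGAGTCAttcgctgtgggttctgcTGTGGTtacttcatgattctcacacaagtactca
Prf1, chr10:61297586-61297832, plus strand: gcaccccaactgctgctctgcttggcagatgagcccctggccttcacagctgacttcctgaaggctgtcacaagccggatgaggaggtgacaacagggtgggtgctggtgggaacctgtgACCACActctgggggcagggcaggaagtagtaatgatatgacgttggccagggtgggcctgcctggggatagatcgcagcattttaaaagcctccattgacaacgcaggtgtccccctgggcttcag
Gzmb has 2 matches to TGTGGT and 1 to TGANTCA, and Prf1 has 1 match to TGTGGT, on the minus strand of the sequence shown. Other members hold matches too. The window of Gzma has 1 match to TGTGGT, and the first of 2 windows of Gzmm has 1 as well. Whether a match bears on the level of a gene was not tested. Of 32851 windows of RefSeq genes, 14.0% hold TGTGGT and 6.75% hold TGANTCA in their upstream 250 bases. A match is a string of letters and not a site shown to be bound. No window was found for Ctsw in the RefSeq table.

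The factors that are known to act on cytotoxic genes differed widely in level. Of 11 such regulators 9 reached 1 TPM and 8 reached 10 TPM. Id2, an inhibitor of E proteins, was highest at 252.5 and 272.4 TPM, followed by Batf at 118 and 131 TPM and Stat5b, which relays interleukin-2 signals, at 20.99 and 27.49. Runx3 stood at 13.3 and 14.2 TPM. The 2 T-box factors of cytotoxic lymphocytes were lower, with Tbx21 at 3.37 and 3.71 TPM and Eomes, the lowest of the list, at 0.07 and 0.32 from 2 and 11 reads.

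The genes that process and sort granule proteins were all expressed, with 9 of 9 at 1 TPM or more and a median of 86.7 TPM. Nkg7, a granule membrane protein, was at 288 and 311 TPM, 74.3 and 41.1 times Prf1. Calr, a chaperone that binds perforin, was at 204 and 212 TPM, and M6pr, a receptor that sorts granzymes to the granules, at 172 and 200 TPM. Ctsc, the peptidase that activates progranzymes, was at 90.1 and 83.4 TPM, and its inhibitor Cst7 was 1.41 and 1.39 times as high. Ctsh was the lowest, at 1.53 and 0.74 TPM. Beside Ctsw, 7 of 9 other papain-like cathepsins reached 1 TPM, with Ctsb (323 and 371 TPM) and Ctss (276 and 281 TPM) above Ctsw and Ctsc below it. Ctsk was lowest at 0.06 and 0.35.

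All 16 genes of granule biogenesis and release reached 1 TPM, with a median of 30.4 TPM. Vamp8 led at 306 and 288 TPM, then Stxbp2 at 139 and 154 and the motor protein Kif5b at 87.6 and 68.3. Sytl3 was the lowest at 4.70 and 5.54 TPM. Of 12 enzymes that build chondroitin sulfate, the chain that serglycin carries, 10 reached 1 TPM but only 3 reached 10 TPM, and the median was 5.22 TPM. Chst12, a sulfotransferase, was at 18.6 and 20.1 TPM, B4galt7 at 18.6 and 19.4 and B3gat3 at 14.1 and 14.5, whereas Chst11 was lowest at 0.40 and 0.20. Each of these enzymes was far below Srgn.

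Among clade B serpins beyond Serpinb9 and Serpinb6b, 2 of 21 reached 1 TPM. Serpinb6a, at 31.2 and 29.0 TPM, was 1.16 and 0.968 times Serpinb6b, so the order of the 2 genes differed between libraries. Serpinb1a was at 18.3 and 16.5 TPM, and the third, Serpinb9b, at 0.11 and 0.59. No reads were found for 13 of the 21, among them Serpinb9c, Serpinb9d, Serpinb9e, Serpinb9g, Serpinb6c, Serpinb6d and Serpinb6e. The coding sequence of Serpinb9 matched Serpinb9b at 86.5% of aligned bases, and that of Serpinb6b matched Serpinb6c at 87.9% and Serpinb6a at 86.4%. The close relatives of both members were thus largely without reads, apart from Serpinb6a.

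**Figure D4:**
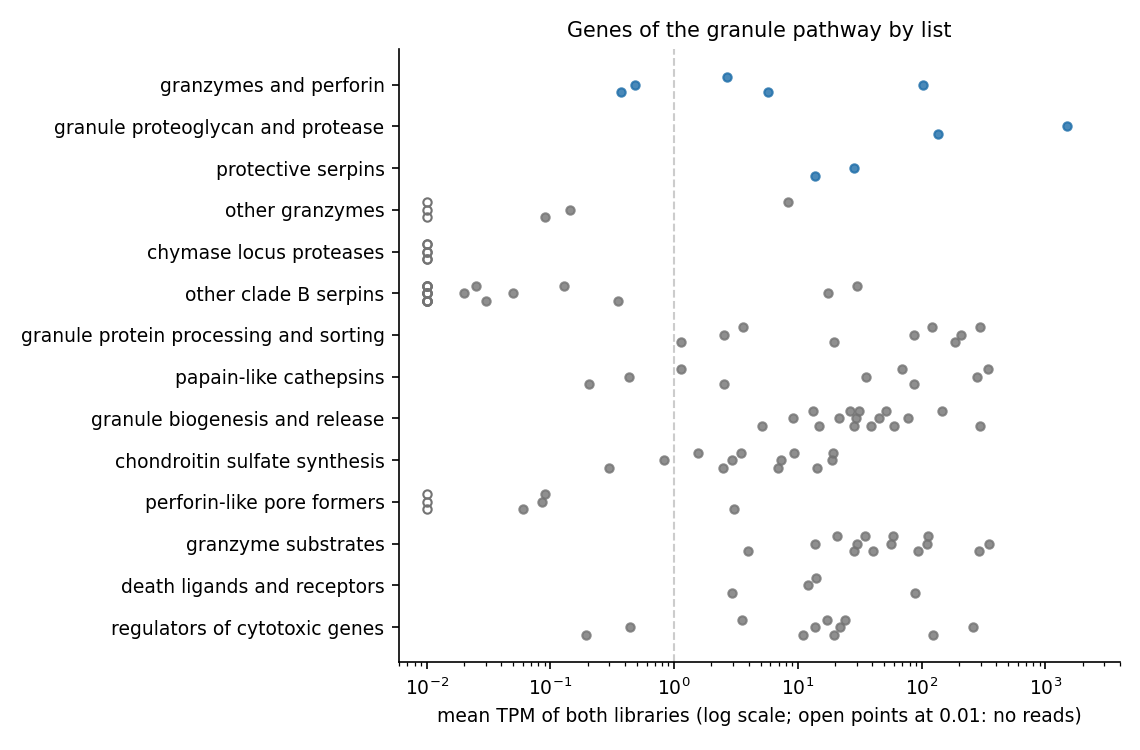
Mean TPM of both libraries on a log axis for each gene of 3 lists of members (blue) and 11 pathway lists (grey), with genes without reads as open points at 0.01 and a dashed line at 1 TPM. Genes of processing, release and substrates lie mostly above 10 TPM, whereas most other granzymes and clade B serpins lie at or near 0.

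A second deposited table gives whole-number counts for the same libraries. It held 3478224 and 3475360 counts in all, far fewer than the estimated reads. By count, without scaling to transcript length, Srgn was below Ctsw there, with 997 and 991 counts against 1143 and 1189. In estimated reads, also unscaled, Srgn had 15764 and 14796 against 1880 and 1920. The estimated length was 893 bases for Srgn and 1197 for Ctsw in library 1, so an order by count is not an order by TPM. Gzmb had 671 and 596 counts, Serpinb6b 334 and 336, Serpinb9 231 and 236, and Prf1 76 and 129. Gzma had 25 and 22, Gzmk 10 and 1, and Gzmm 6 and 6. The count of Srgn was 6.32% of its estimated reads in library 1, that of Gzmb 36.4% and that of Prf1 72.4%. Those of Gzmk and Gzmm were 100%. In library 2 the share was 37.2% for Gzmb and 65.2% for Prf1. Gzmb thus exceeded Prf1 by less in these counts than in the estimated reads, in both libraries.

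The share was lowest among the most densely covered genes. Over 10518 protein-coding genes with 20 or more reads, its median was 36.4% under 0.05 estimated reads per base, 43.2% at 0.05 to 0.2 and 44.8% at 0.2 to 1. It was 32.9% at 1 to 5 and 5.06% at 5 or more, where Srgn lay with 17.6 reads per base in library 1. Why the counts fell short of the estimated reads is stated in none of the sources used here and was not tested. The estimated reads and the TPM given with them were used for all levels above. In the whole-number table Prf1 was the one gene of the 9 called between libraries (log2 ratio 0.76, adjusted p = 0.00666, exact binomial test), where 9.95% of 10978 tested genes were.

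**Figure D5:**
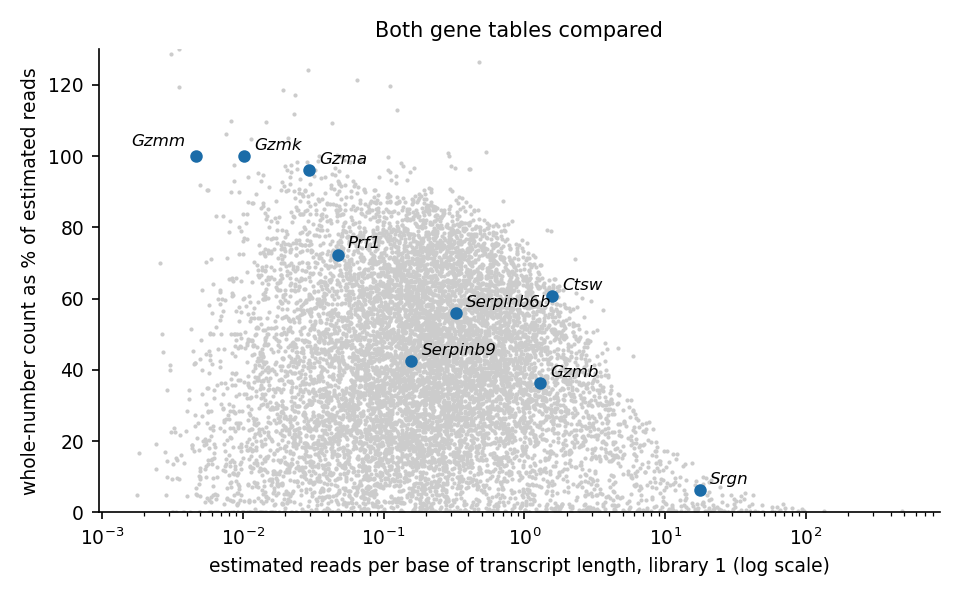
Whole-number count as a percentage of estimated reads in library 1 against estimated reads per base on a log axis, in grey for 10518 protein-coding genes with 20 or more reads (35 lie above the axis) and in blue for the 9 genes. The percentage is mostly low at the highest density, and Srgn lies at 6.32%.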

How the data were processed

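Polyadenylated RNA of activated regulatory T cells was sequenced in 2 technical libraries of 1 biological sample. The members and gene lists were chosen with earlier results of these data known. Gene and transcript tables on mm10 with GENCODE release M21, and a whole-number table with release M4, were used, per the file listings the authors deposited. Aligner and counters are named in none of the sources used here.

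Expected counts, which estimate the reads of each gene, are as deposited, per the file headers. TPM and FPKM were scaled by the authors by effective length and total. The deposited isoform percent divides a gene's TPM among its transcripts. The deposited posterior SD of reads is a score of assignment error. The whole-number count was used as deposited.

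Rows that name no gene held 0.142% and 0.186% of reads and stayed out of library sizes and tests. Expected counts were rounded, and genes with 10 or more reads in sum went into a two-sided exact binomial test against the share of library 2, with Benjamini-Hochberg adjustment and a threshold of 0.05. For log2 ratios 0.5 reads were added. The test was checked on simulated libraries that differed by Poisson counting error and a set of changed genes. That check does not cover spread between real libraries beyond counting error. Intervals (95%) and limits for no reads (3 reads) cover counting error only. edgeR 4.0.16 and DESeq2 1.42.0 (R 4.3.3) gave alternative scalings, and edgeR an exact test at its common dispersion. Python 3.11.15, numpy 2.4.6, pandas 2.3.3, scipy 1.17.1, Biopython 1.88 and matplotlib 3.10.9 were used for the rest. All 9 members were named, with the 3 highest genes and the lowest of each list, genes without reads and neighbours within 100 kb. Other alternatives were no filter, a minimum of 100 reads, a prior count of 2, FPKM, TPM over protein-coding genes, and 1 library at a time. Of the 9 members, 8 had a RefSeq upstream window. The values of 1 listed gene are not reported here.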

Additional observations from a re-analysis of the deposited data

How the results depend on the processing

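The order of the 9 genes rests on 1 animal and 2 technical libraries, so neither variation between mice nor a condition can be read from it. The count of genes differing between libraries was 4199 of 17272 tested (24.3%). It was 305 of 17272 (1.77%) with edgeR's exact test at the common dispersion and 1092 of 10978 (9.95%) with the whole-number counts. The count of members called was 3, and it was 0 and 1 in the same alternatives, with Prf1 the one called by the whole-number counts. The cause was not tested. With TMM or DESeq2 scaling 3 of 9 members were called, where 24.3% of all tested genes were in each. Without a filter 3 of 9 were called, beside 12.3% of genes. At a minimum of 100 reads 3 of the 6 members tested were called, beside 32.8% of genes. In the whole-number counts the log2 ratio of Gzma was -0.18 in place of 0.10 and that of Gzmm 0.0012 in place of -0.20, while Gzmb (-0.17, adjusted p = 0.187, exact binomial test) and Srgn (-0.01, adjusted p = 1) lost their calls. The number of members at 100 TPM or more was 3, and 2 without replicate 1, in FPKM or where both libraries had to reach it, since Gzmb was then under 100. Counts at 1 and at 10 TPM were 7 and 5 in all these settings. Over protein-coding genes only, every TPM is higher by construction, with Gzmb at 126 TPM and Srgn at 1834. At 11 reads each in sum, Gzmk and Gzmm could not be ordered at this depth. No paired analysis was possible because the series has 1 group.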

Other observations

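Granzyme substrates were expressed throughout, with 14 of 14 genes at 1 TPM or more and a median of 48.2 TPM. Hmgb2 and Set, nuclear proteins cleaved by granzyme A, stood at 364 and 341 TPM and at 279 and 301 TPM, and Nme1, the nuclease that Set holds inactive, at 109 and 111. Lmnb1 was lowest at 3.43 and 4.56. All 4 death ligands and receptors examined reached 1 TPM. Fas was at 83.0 and 93.6 TPM, Tnfsf10 at 14.2 and 13.8, Fasl at 12.4 and 11.8, and Tnfrsf10b at 3.47 and 2.39. Fasl was thus above Prf1 in both libraries.

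Of 7 pore formers of the perforin and complement family, 1 reached 1 TPM, C8g, at 2.36 and 3.69 TPM, which belongs to the complex but not to the pore-forming fold. C7, C8a and C8b had no reads. Mpeg1, a macrophage relative of perforin, had no reads in library 1 and 9 in library 2 (0.18 TPM). The RefSeq window of Gzmk, which lies inside the annotated span of the gene, held 1 match to GGTGTGA of T-box factors. For Gzmm the first window held 1 match to TTCNNNGAA of STAT factors. Its second window, inside the gene, held 1 to GGTGTGA. Of 32851 windows, 3.33% hold GGTGTGA and 7.02% hold TTCNNNGAA. The windows of Srgn, Serpinb9 and Serpinb6b held no match to TGTGGT of RUNX factors, to TGANTCA of AP-1 or to GGTGTGA. That of Serpinb9 also lies inside its gene, and the second of 2 windows of Srgn had 0 bases before an annotated exon.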
